A study of Mus musculus with 32 samples.

Results

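The 5 genes described here are Stra8, Smc1b, Hormad1, Mcmdc2 and Tuba3a, which act in meiosis or belong to the male germ line. They were chosen by name, with their higher RNA levels in the mutant cells already known, from 21911 protein-coding genes of GENCODE release M21. Their 6 transcripts were taken from the 5723 transcripts of the authors' deposited table, and 17 of 60798 R-loop peaks lay on the genes or within 5 kb of them. The series compared mouse embryonic stem cells that were wild type (WT) with H1-TKO cells, a triple knockout of the linker histone H1, both grown in serum with LIF. The labels do not name the deleted H1 genes or say how many clones the line stands for. cheRNA, the RNA left on insoluble chromatin once nuclei have been lysed in a buffer of urea and detergent, was sequenced from 3 samples per genotype, and its table holds 1 fold change per transcript and no value per sample. MapR, which releases DNA near R-loops (RNA-DNA hybrids with a displaced strand) with a fusion of RNase H and micrococcal nuclease (RNH, labelled GST-RH-MNase), had 2 libraries per genotype. A control made with the nuclease fusion without RNase H (MNase only, labelled GST-MNase) had 1 library per genotype.

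Meiosis is the pair of divisions that makes eggs and sperm, and it needs proteins that dividing body cells do not use. Special cohesin subunits hold sister chromosomes together, axis proteins organise chromosome loops, and a recombination machinery breaks DNA and joins it to the partner chromosome. In embryonic stem cells most of these genes are kept silent, and DNA methylation, histone H3 lysine 9 methylation and a Polycomb complex that binds E-box and E2F sequence motifs are known to take part in that silencing.

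All 5 genes had more RNA on chromatin in TKO than in WT cells in the authors' deposited table, between 3.92-fold and 10.2-fold. These values are a description without a test, because they are the values the genes were chosen on and the table gives no error. The sign of a fold change is not explained in the table, and it was set here so that Hist1h1c, Hist1h1d and Hist1h1e, known as the deleted genes, read as lower in TKO (12.2-fold, 32.5-fold and 28.5-fold in the authors' deposited table). Of all protein-coding genes, 4.14% had a gene transcript listed higher in TKO and 4.8% one listed lower, and nothing is read from the 5 of 5 against this share. In TKO 45% of the 2904 gene transcripts of the authors' deposited table were higher, as were all 6 of the members. The table lists only transcripts changed at least 2.00-fold, and counts behind the folds are not in it. In bulk RNA, more cells that express a gene and more RNA per cell cannot be told apart. The labels are silent on whether replicates are separate cultures, so a p-value here reflects the spread among these samples alone, which may be technical.

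Stra8, the retinoic acid target that opens the meiotic program, lies on chromosome 6 (GRCm38, plus strand, 34920163 to 34939344, ENSMUSG00000029848.11). Its transcript in the authors' deposited table ran from 34920995 to 34942865, covered 95.7% of the gene and had a log2 TKO over WT of 2.84, or 7.16-fold. That placed it 268th of 1307 higher gene transcripts of the authors' deposited table, whose median log2 value was 1.89. The transcript began 832 bp inside the GENCODE gene and close to the RefSeq start, and ran on past the gene's 3′ end.

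Smc1b encodes the meiosis-specific form of a core cohesin subunit and lies on chromosome 15 (minus strand, 85064689 to 85131964, ENSMUSG00000022432.7). The authors' deposited table gave it in 2 pieces. The upstream piece, 85091769 to 85131914, began 50 bp inside the gene and had a log2 TKO over WT of 3.02 (8.09-fold) in the authors' deposited table. The downstream piece, 85060418 to 85079060, had a log2 value of 3.33 (10.0-fold) in the authors' deposited table and ran 4271 bp past the gene's 3′ end. Between them lay 12708 bp with no listed transcript. The pieces differed little in fold, and they covered 59.7% and 21.4% of the gene body.

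Hormad1, a HORMA domain protein of unsynapsed meiotic chromosome axes, lies on chromosome 3 (plus strand, 95559677 to 95587671, ENSMUSG00000028109.14). One transcript covered 100% of the gene in the authors' deposited table, from 95559649 to 95588932, with the smallest log2 TKO over WT of the 5 genes, 1.97 (3.92-fold). It ranked 603rd among the 1307 higher gene transcripts of the authors' deposited table, near their middle.

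Mcmdc2, a relative of the replicative helicase that is needed to complete meiotic recombination, lies on chromosome 1 (plus strand, 9908638 to 9942085, ENSMUSG00000046101.16). Its transcript, 9908806 to 9941452, covered 97.6% of the gene and had the highest log2 TKO over WT of the 6 member transcripts in the authors' deposited table, 3.35 (10.2-fold). It ranked 153rd of 1307, so 88.3% of higher gene transcripts in the authors' deposited table had a smaller value.

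Tuba3a, an alpha-tubulin gene used mainly in testis, lies on chromosome 6 (minus strand, 125278274 to 125286042, ENSMUSG00000067702.5). Its transcript, 125277645 to 125285916, covered 98.4% of the gene with a log2 TKO over WT of 2.68 (6.41-fold) in the authors' deposited table. A near-identical copy, Tuba3b, lies elsewhere on chromosome 6 and was not listed. The spliced RNAs of the pair were identical at 1436 of 1493 aligned bases (96.2%), and 19.9% of the 75-base windows of the Tuba3a RNA, the read length, occurred unchanged in Tuba3b. The Tuba3a value is therefore uncertain to the extent that the authors' counting assigned such reads. For Hormad1 12.6% of windows were shared, with the pseudogene Gm15529, for Mcmdc2 0.548%, and for Smc1b and Stra8 0%.

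No transcript of another class carried a member's name, and none was listed on the opposite strand across any of the 5 genes. Gene transcripts listed on the chromosomes of the members leaned lower than the 45% over all chromosomes. That 45% includes chromosome 11, where 80.3% were higher in the authors' deposited table. The share higher in TKO was 36.3% on chromosome 6, 41.0% on chromosome 15, 39.8% on chromosome 3 and 35.4% on chromosome 1 in the authors' deposited table.

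The promoters were read to see what the genes share in sequence. The 250 bases before 1 RefSeq start per gene (GRCm38.p6) follow, 5′ to 3′ on the gene's strand, for 4 members and for Tuba3b as the copy of Tuba3a. Hormad1 has 2 promoters in the promoter table, and the one with the lower coordinates is shown. Mcmdc2 is not in the promoter table. Capitals mark the E2F-type motif TCCCGC or its reverse complement and the palindromic E-box CACGTG, which do not overlap each other in these sequences.
Smc1b (chr15:85131958-85132207, minus strand): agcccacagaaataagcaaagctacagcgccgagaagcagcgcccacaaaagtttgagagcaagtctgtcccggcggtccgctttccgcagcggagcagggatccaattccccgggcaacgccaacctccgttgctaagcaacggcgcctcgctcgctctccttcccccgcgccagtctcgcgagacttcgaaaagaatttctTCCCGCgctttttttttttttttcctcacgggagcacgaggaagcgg
Stra8 (chr6:34920698-34920947, plus strand): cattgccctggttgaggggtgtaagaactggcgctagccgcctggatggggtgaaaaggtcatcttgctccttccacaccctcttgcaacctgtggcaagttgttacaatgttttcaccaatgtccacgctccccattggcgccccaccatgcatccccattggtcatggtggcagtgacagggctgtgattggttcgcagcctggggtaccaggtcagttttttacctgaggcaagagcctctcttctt
Hormad1 (chr3:95559427-95559676, plus strand): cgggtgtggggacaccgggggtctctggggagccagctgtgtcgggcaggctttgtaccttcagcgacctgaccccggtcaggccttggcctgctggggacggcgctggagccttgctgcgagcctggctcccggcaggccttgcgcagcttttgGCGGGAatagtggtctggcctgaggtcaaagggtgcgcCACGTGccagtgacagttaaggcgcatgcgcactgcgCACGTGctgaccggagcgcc
Tuba3a (chr6:125286082-125286331, minus strand): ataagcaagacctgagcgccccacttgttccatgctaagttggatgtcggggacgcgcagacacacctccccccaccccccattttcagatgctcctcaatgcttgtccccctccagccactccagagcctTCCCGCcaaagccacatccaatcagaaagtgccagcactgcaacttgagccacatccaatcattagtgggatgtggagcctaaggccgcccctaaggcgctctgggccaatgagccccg
Tuba3b (chr6:145615713-145615962, plus strand): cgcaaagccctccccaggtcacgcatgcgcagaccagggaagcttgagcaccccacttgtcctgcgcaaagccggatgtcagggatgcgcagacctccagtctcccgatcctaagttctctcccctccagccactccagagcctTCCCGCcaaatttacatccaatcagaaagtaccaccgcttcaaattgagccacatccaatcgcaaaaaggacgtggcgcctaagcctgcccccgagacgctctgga

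The E2F-type motif was present in the windows of Smc1b, Hormad1 and Tuba3a, and neither motif was in that of Stra8. It began 47 bases before the start in Smc1b, 95 in Hormad1 (on the opposite strand) and 119 in Tuba3a. Hormad1 also held the E-box at 57 and 20 bases before the start. Of 16517 protein-coding genes in the promoter table, 24.9% held the E2F-type motif and 7.82% the E-box in the same window on either strand. In the Tuba3a and Tuba3b promoters the motif lay inside the longest run both share, 33 bases long. CpG numbers over the 250 bases were 25 in Smc1b, 19 in Hormad1, 8 in Tuba3a and 5 in Stra8. The median for coding genes was 11, each taken at its promoter with the most CpG. Among the 80 genes of the germline lists described next, 65 were in the promoter table. Of these, 22 (33.8%) held the E2F-type motif and 18 (27.7%) the E-box at any of their promoters. These matches describe letters in a window and were not tested.

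The wider germline program was described with 6 lists of 80 genes, which were drawn up with earlier results of these data known. Of the 80, 19 (23.8%) had a gene transcript listed higher in the authors' deposited table, against 4.14% of protein-coding genes, and 3 (3.75%) one listed lower, against 4.8%. Without the 5 members the numbers in the authors' deposited table were 14 and 3 of 75. The median log2 value of the 17 other listed genes was 1.32, and it was -1.05 over the 1954 listed protein-coding genes of the authors' deposited table. Of the 19, 5 lie on chromosome 11 (Hormad2, Pld6, Tex19.1, Psmc3ip and Tekt1), where 80.3% of listed gene transcripts were higher in the authors' deposited table. None of the 5 members lies there. Hist1h1t and Hist1h2aa, also among the 19, lie on chromosome 13 near the deleted H1 genes. Only 9 of the 19 had a log2 value of at least 2 in the authors' deposited table, and the share of protein-coding genes at that value was not computed.

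**Figure D1:**
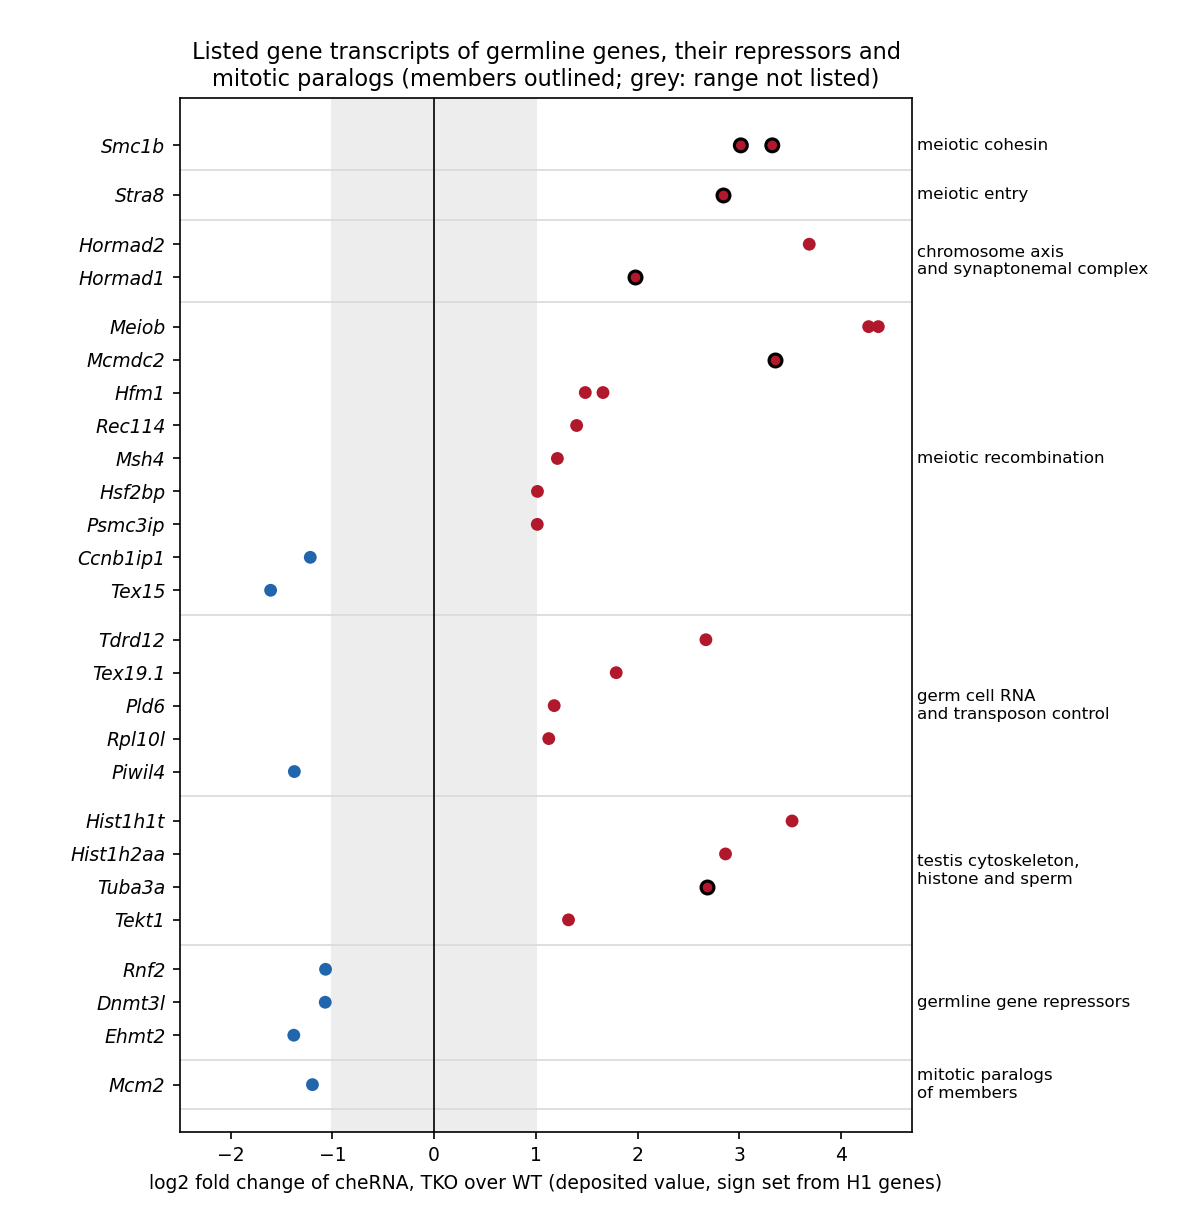
Log2 TKO over WT of gene transcripts in the authors' deposited table (x axis) for the listed genes of each group (y axis); each point is 1 transcript, red higher and blue lower, black outlines mark the 5 members, and the grey band from -1 to 1 is not listed. The points of 19 germline genes lie on the higher side and those of 3 on the lower side, while the 3 listed repressor genes lie between -1.07 and -1.38.

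Cohesin and axis genes were listed for few members. Smc1b was the 1 listed gene of 4 meiotic cohesin genes, and Rec8, Rad21l and Stag3 were not listed. Of 12 axis and synaptonemal complex genes, Hormad1 was joined by its paralog Hormad2, which had a log2 TKO over WT of 3.69 (12.9-fold) in the authors' deposited table, and no Sycp or Syce gene was listed. An intergenic transcript named for 4930447C04Rik, which encodes the synaptonemal complex protein SIX6OS1, was lower (-1.43 in the authors' deposited table). Stra8 was the 1 gene of 11 meiotic entry genes with a listed gene transcript. Intergenic transcripts named for 2 others went in both directions in the authors' deposited table, with Dmrt1, a regulator of germ cell fate, at 1.15 and Nanos3, which keeps primordial germ cells alive, at -1.96. The partner of Stra8, Meiosin, and the germ cell RNA-binding genes Dazl and Ddx4 were not listed.

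Recombination genes had the most listed members, 7 higher and 2 lower of 22. Meiob, which encodes a single-strand DNA-binding protein of meiosis, had pieces with log2 TKO over WT of 4.27 and 4.37 (19.3-fold and 20.7-fold) in the authors' deposited table, above every member. The others were closer to the limit of listing. In the authors' deposited table Hfm1, a crossover helicase, stood at 1.66 and 1.49, Rec114, needed for DNA breaks, at 1.40, and Msh4, a crossover factor, at 1.21. Hsf2bp, a partner of BRCA2, and Psmc3ip, a cofactor of strand exchange, stood at 1.02 and 1.01 in the authors' deposited table. On the lower side the authors' deposited table held Tex15 (-1.61), with a transcript on its 5′ side at -1.41, and the crossover ubiquitin ligase Ccnb1ip1 (-1.22).

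Of 16 genes of germ cell RNA and transposon control, 4 were higher in the authors' deposited table. Tdrd12, a piRNA factor, had a log2 TKO over WT of 2.67, Tex19.1, which restrains retrotransposons, 1.79, Pld6, a mitochondrial piRNA enzyme, 1.18, and Rpl10l, a ribosomal protein gene of male germ cells, 1.13 in the authors' deposited table. Piwil4, a nuclear piRNA-binding protein, was the 1 lower gene (-1.38 in the authors' deposited table). Of 15 testis genes, Tuba3a was joined in the authors' deposited table by the testis histone genes Hist1h1t (3.52) and Hist1h2aa (2.87) and by the axoneme gene Tekt1 (1.32). The transcripts of both histone genes lie on chromosome 13 near the deleted H1 genes. That of Hist1h1t begins at 23695811, between Hist1h1e and Hist1h1c, and that of Hist1h2aa at 23934504. Whether the deletions bear on these values was not tested. Protamine genes were not listed, and neither were gene transcripts of the transition protein genes, although 2 intergenic transcripts named for Tnp1 were higher (3.39 and 3.06 in the authors' deposited table). Intergenic transcripts named for Odf1, a sperm tail gene, stood at 6.46 and 2.44 in the authors' deposited table. Over the 6 lists, 5 transcripts of other classes were higher and 3 lower in the authors' deposited table. Over all protein-coding genes 2092 transcripts of other classes were higher and 666 lower in the authors' deposited table.

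Of 18 genes known to silence the germline program, most had no listed gene transcript. None of the 18 (0) had a gene transcript listed higher and 3 one listed lower (16.7% against 4.8% of protein-coding genes). The authors' deposited table gave Ehmt2, a histone H3 lysine 9 methyltransferase, at -1.38 (2.60-fold lower). Dnmt3l, the cofactor of the de novo DNA methyltransferases, stood at -1.07 and Rnf2, a catalytic Polycomb subunit, at -1.07 in the authors' deposited table. An antisense transcript within Atf7ip, a cofactor of histone H3 lysine 9 methylation, was higher, at 2.95 in the authors' deposited table. E2f6, Pcgf6, L3mbtl2, Mga, Setdb1 and Dnmt1 were not listed. The everyday relatives of the members were mostly absent as well. Of 20 mitotic cohesin, tubulin and MCM paralogs the 1 with a listed gene transcript was Mcm2, a subunit of the replicative helicase, at -1.20 in the authors' deposited table, and Smc1a, Smc3 and the Tuba1 genes had none. Rad21, Stag1 and Tuba1c had 4 transcripts of other classes between them, all higher (1.02 to 4.94 in the authors' deposited table). Of such transcripts named for protein-coding genes, 2092 were higher and 666 lower in the authors' deposited table.

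Markers of other cells were looked at beside these lists. Of 20 pluripotency genes, the authors' deposited table listed Dppa3 higher (3.01) and Klf5 lower (-2.23), and Pou5f1, Sox2 and Nanog had no listed gene transcript, which says nothing of their level. Outside gene transcripts, 2092 transcripts named for protein-coding genes were higher and 666 lower in the authors' deposited table. Those named for pluripotency genes were 13 higher and 2 lower. The higher ones were named for Sox2, Nanog, Klf2, Klf4, Dppa3, Prdm14, Sall4 and Tbx3 (1.35 to 5.67), and the lower ones for Klf5 (-2.16) and Dppa5a (-1.32), in the authors' deposited table. Of 14 genes of the somatic cells of the gonad 0 were higher, and Cyp11a1, a steroid enzyme, was lower (-2.68 and -3.52 in the authors' deposited table). An intergenic transcript named for Nr5a1, a gonadal transcription factor, was higher (1.51 in the authors' deposited table). Of 10 fibroblast genes, Vim was higher (2.25 in the authors' deposited table), and of 9 genes of the early embryo's 2-cell stage 0 were listed. Levels of these markers per sample are not in the table, and their part in the values of the 5 genes was not tested.

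Around the members, 9 listed transcripts of other genes lay within 100 kb, 8 higher and 1 lower, where 60.1% of all listed transcripts were higher. They stood beside 3 of the 5 genes. The surroundings of Stra8 held 4, all higher in the authors' deposited table. These were an antisense transcript within Agbl3 (log2 TKO over WT 4.38), Tmem140 (3.11), and a gene and an intergenic transcript of 2010107G12Rik (2.05 and 1.44 in the authors' deposited table), an older name of Slc23a4 in RefSeq. The gene transcript of 2010107G12Rik ran toward Stra8 from the other strand and ended 3969 bp from the annotated gene. The 2 listed transcripts came closer, with that of Stra8 ending at 34942865 and that of 2010107G12Rik at 34943313.

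Tuba3a had 4 listed neighbours in both directions. In the authors' deposited table Vamp1, a synaptic vesicle protein gene, stood at a log2 TKO over WT of 1.04, Tapbpl at 1.65 and a transcript on the 5′ side of Plekhg6 at 1.44. Ltbr, a cytokine receptor gene 19970 bp from Tuba3a on the same strand, was lower at -1.47 in the authors' deposited table. Smc1b had Fbln1, a matrix protein gene 74102 bp away, at 1.45 in the authors' deposited table. Its head-to-head neighbour Ribc2, whose start lies 114 bp from that of Smc1b, was not listed. For Hormad1 and Mcmdc2 no listed transcript of another gene lay within 100 kb, although 7 and 5 protein-coding genes are annotated there. Arnt, 62437 bp from Hormad1, had an intergenic transcript and one on its 5′ side that lay farther off, both higher (1.59 and 1.03 in the authors' deposited table).

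**Figure D2:**
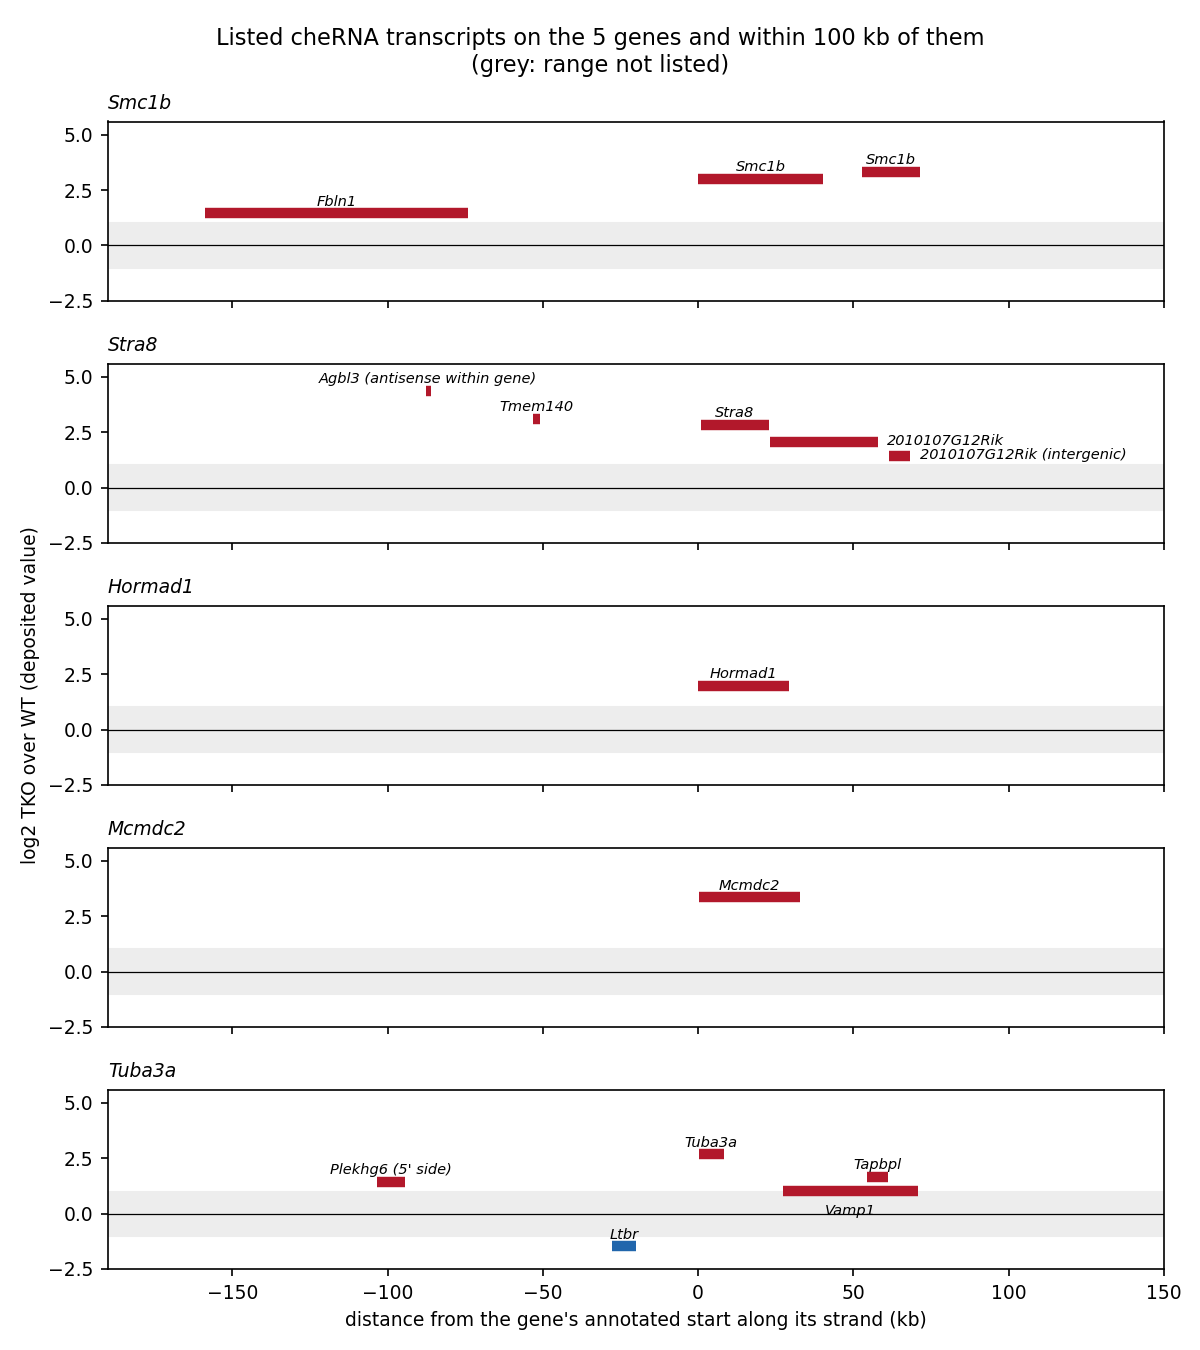
Log2 TKO over WT in the authors' deposited table (y axis) of each listed transcript on the 5 genes and within 100 kb of them, drawn as a bar at its distance in kb from the gene's start along its strand (x axis); red is higher and blue lower in TKO, and grey is the range not listed. Stra8 has 4 higher neighbours, Tuba3a has 3 higher and 1 lower, and Hormad1 and Mcmdc2 stand alone.

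MapR peaks were then set against the genes, a readout that did not enter their choice. The authors' lists give each peak a fold enrichment over local background, which is the authors' own value. The 2 replicates differed in length, with 22336 and 6612 peaks in WT and 25392 and 6458 in TKO, and the MNase-only lists held 568 and 582. Peaks that met an MNase-only peak were left out (407 to 455 per RNH list), and the number of reads is not known.

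Stra8 was the 1 member with a peak in all 4 RNH libraries, as were 10.4% of protein-coding genes. The peaks lay in the first kilobases of the gene, in introns, between 137 and 1358 bp after the first base of the listed transcript. Fold enrichment was 3.41 in WT replicate 1 and 3.37 in WT replicate 2. In TKO it was 3.30 in replicate 1, and replicate 2 had a pair of peaks at 3.44 and 3.99. The genotypes overlapped in fold enrichment, and these were weak peaks, since at most 32.1% of the peaks of their library had a lower value. The 70 bases common to 1 peak of each library (chr6:34921791-34921860, GRCm38, plus strand) are shown because they are the place shared by all 4 lists, with CpG in capitals.
Stra8: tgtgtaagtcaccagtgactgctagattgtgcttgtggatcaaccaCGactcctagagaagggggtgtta

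Smc1b had a peak in 3 libraries, at 4.10 fold enrichment in WT replicate 1, 4.50 in TKO replicate 1 and 5.35 in TKO replicate 2, and none in WT replicate 2. Of protein-coding genes, 15.5% had a peak in exactly 3 RNH libraries, and 18.9% had one in WT replicate 2. All 3 Smc1b peaks lay in an intron, 46343 to 46996 bp into the gene, and inside the stretch with no listed transcript between its 2 pieces. The 206 bases common to the 3 peaks (chr15:85085331-85085536, GRCm38, minus strand) are shown because the sequence is soft-masked as a repeat over 100% of its length, with CpG in capitals.
Smc1b: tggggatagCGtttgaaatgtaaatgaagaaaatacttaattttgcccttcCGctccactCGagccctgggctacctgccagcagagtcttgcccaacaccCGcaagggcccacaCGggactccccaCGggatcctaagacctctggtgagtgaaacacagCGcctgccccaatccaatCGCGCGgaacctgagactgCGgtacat
It matched 13 places in the genome over at least 90% of its length, of which 1, the locus itself, was at least 95% identical. Peaks made up of at least 95% repeat were between 9.20% and 24.0% of a library.

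Peaks on the other genes were found in replicate 1 alone. Tuba3a had 1 peak across its start in each genotype, at 3.72 in WT and 3.52 in TKO, which in TKO reached from -349 to 245 bp around the gene's first base. Hormad1 likewise had 1 at its start, at 2.93 in WT and 3.06 in TKO, and only 9.80% and 14.3% of the peaks of those libraries had a lower value. A stronger peak, at 5.26 and 4.83, lay 793 and 882 bp past its end on the first exon of Golph3l, a neighbour that was not listed. Mcmdc2 had a peak at its start in TKO replicate 1 (4.02), 294 to 630 bp into the gene, and none there in WT. Another lay 1770 bp past its end, at 3.50 in WT and 3.62 in TKO. In the MNase-only libraries 0 peaks lay within 5 kb of any of the 5 genes, where 1.07% of protein-coding genes had one in WT and 0.995% in TKO.

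**Figure D3:**
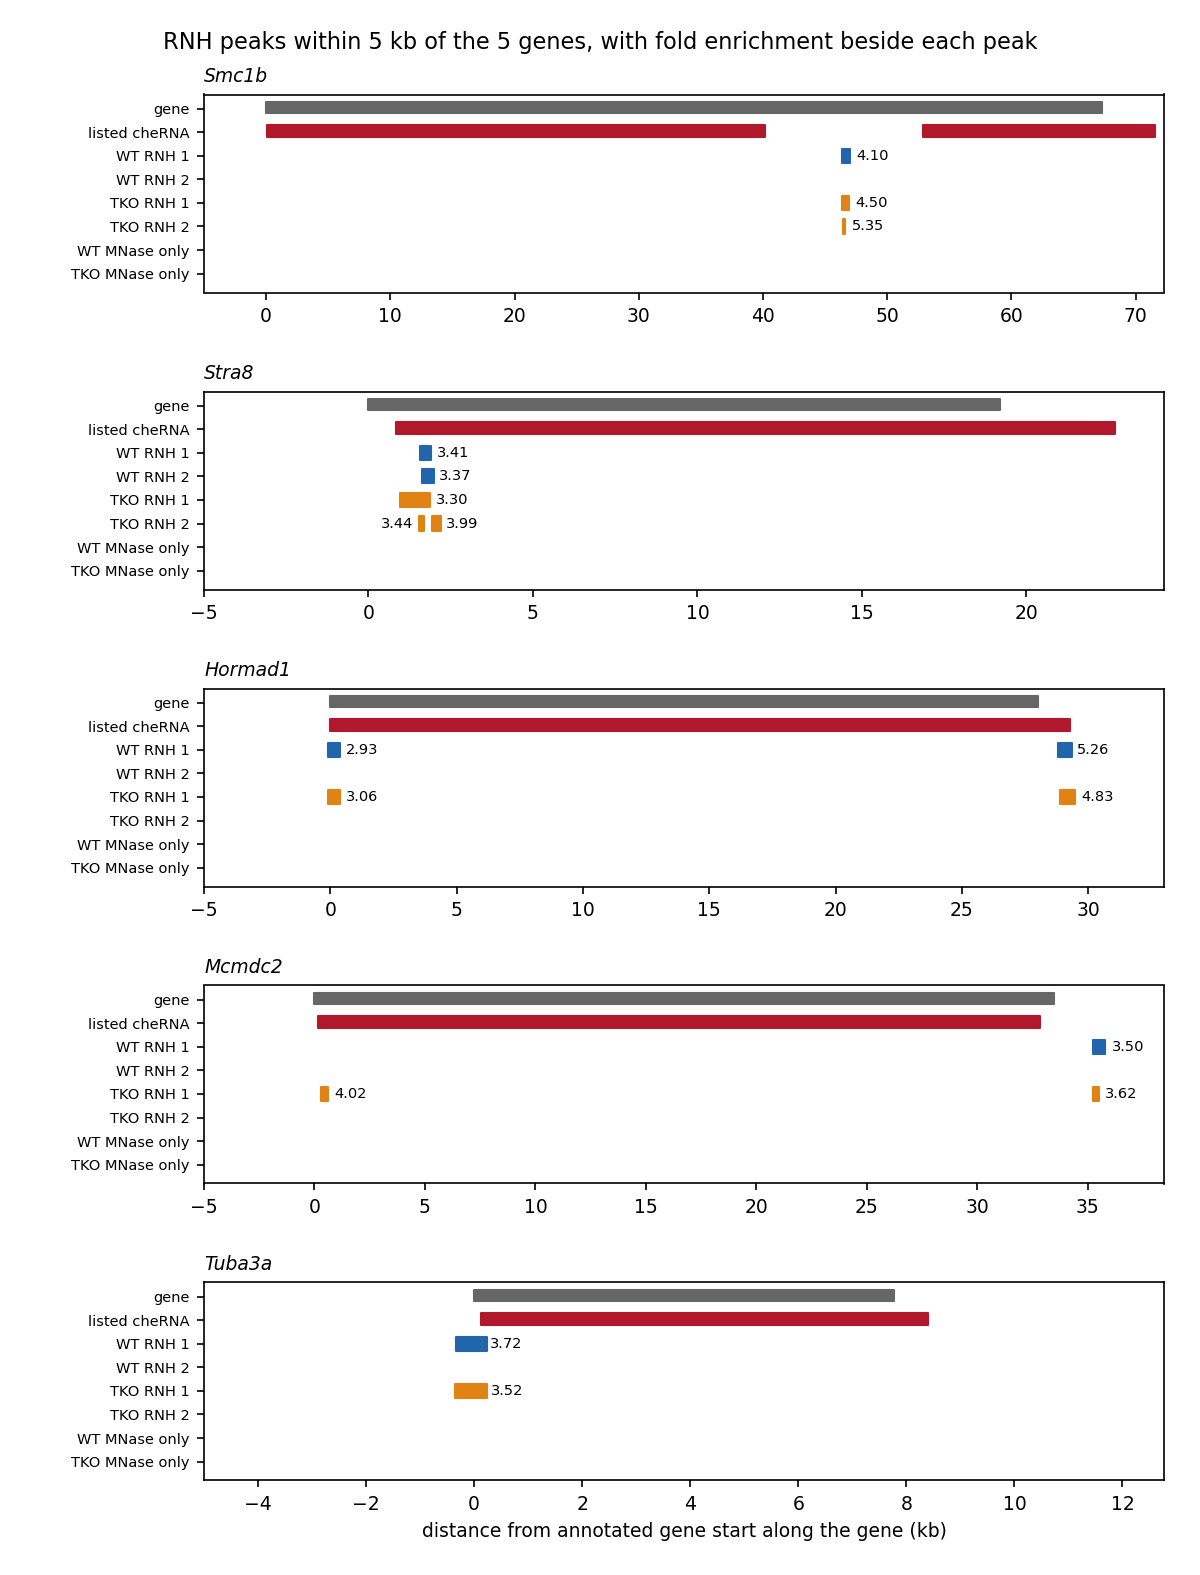
RNH peaks within 5 kb of the 5 genes by library, against the distance in kb from the gene's start (x axis); grey bars are the genes, red bars the listed cheRNA transcripts, blue WT and orange TKO peaks, with the authors' fold enrichment beside each. Stra8 has peaks in all 4 RNH libraries, Smc1b in 3 within the gap of its transcripts, and the MNase-only lines are empty.

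Over the 5 genes, WT libraries held 6 and 1 peaks and TKO libraries 7 and 3. The 3 of TKO replicate 2 include the pair on Stra8, which counts as 2 where WT replicate 2 had 1 peak. Counted as genes with a peak, WT libraries had 5 and 1 and TKO libraries 5 and 2. Per 10000 peaks of the library the peak counts were 2.74 and 1.62 in WT and 2.81 and 4.99 in TKO. The means were 2.18 ± 0.788 (SD, n = 2) in WT and 3.90 ± 1.54 (SD, n = 2) in TKO, a difference of 1.72 (two-sided exact permutation test, p = 0.33, the smallest that 2 against 2 libraries allow). Within replicate 1 it was 0.0710 and within replicate 2 it was 3.37, and without TKO replicate 2 it was 0.628. With peaks of -log10 q of at least 5 it was 0.165, and with the 6010 best peaks of each library it was 0.832 (two-sided exact permutation tests, p = 1 for both). A difference between genotypes in R-loop peaks at these genes was not shown, and so few libraries could not show one at the usual threshold.

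All 5 genes had a peak in at least 1 RNH library, as had 69% of protein-coding genes. In replicate 1 the count was 5 of 5 in WT, where 57% of protein-coding genes had a peak, and 5 of 5 in TKO (61.4%). The share of coding genes with a peak in both of these libraries was not computed, so nothing is read from the 5 in both. In replicate 2 the count was 1 of 5 in WT, where 18.9% of coding genes had a peak, and 2 of 5 in TKO (22.4%). The 80 germline genes stood above these shares of coding genes in both libraries of replicate 1, below in WT replicate 2 and level in TKO replicate 2. In WT 51 (63.8%) and 11 (13.8%) of them had a peak within 5 kb, and in TKO 61 (76.2%) and 18 (22.5%). The difference of means was 10.6 percentage points (two-sided exact permutation test, p = 0.67), beside 3.95 for all coding genes, and it was far smaller than the gap between replicates. It turned to -14.4 without WT replicate 2 and to -16.2 without TKO replicate 1, and was 35.6 without WT replicate 1 and 37.5 without TKO replicate 2. The settings with peaks of -log10 q of at least 5 gave 0 and those with equal numbers of peaks 3.12 (two-sided exact permutation tests, p = 1 for both).

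**Figure D4:**
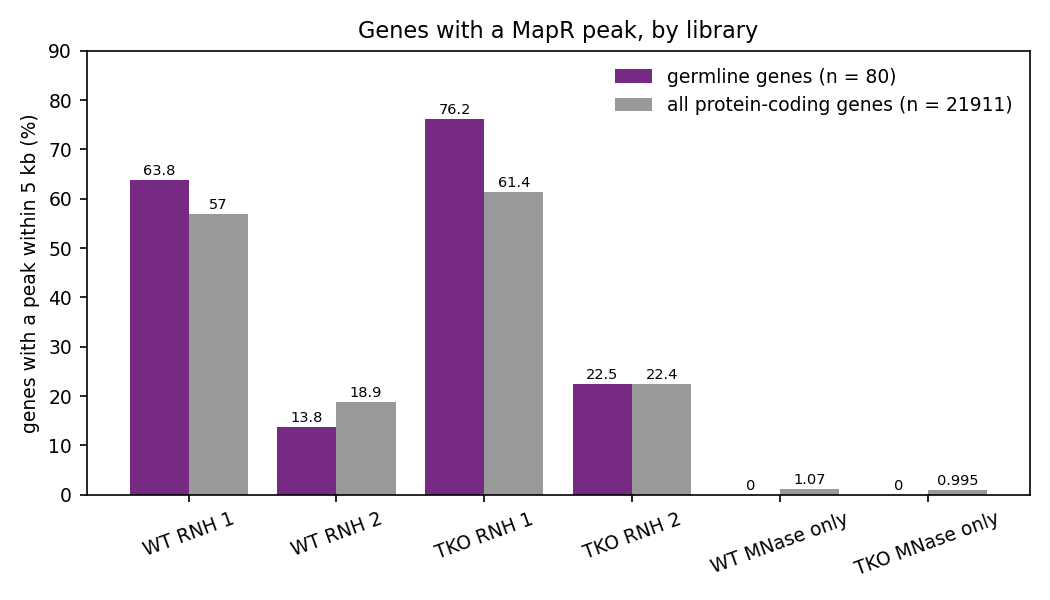
Share of genes in percent with a MapR peak within 5 kb (y axis) in each library (x axis), for the 80 germline genes (purple) and 21911 protein-coding genes (grey). Replicate 1 stands well above replicate 2 in both genotypes, and 0 germline genes have an MNase-only peak.

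Germline genes with a peak in all 4 RNH libraries numbered 9 of 80 (11.2%), close to the 10.4% of coding genes. Ordered by the lowest of their 4 highest fold enrichments they were Ccnb1ip1 (5.04), Prdm9, which places meiotic DNA breaks (4.74), Mei4 (4.56), Tdrd12 (3.59), Stra8 (3.30), Stag3 (3.21), Nanos2 (3.02), Msh5 (2.91) and Tubb4b (2.71). Stra8 and Tdrd12 were the 2 of these with a transcript listed higher.

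The genes most like each member were picked as those with a single listed gene transcript, the same presence or absence of a peak in the 4 RNH libraries and the nearest log2 TKO over WT. In the authors' deposited table the nearest to Stra8 was Tdrd12 (2.67), 0.17 away among 153 candidates. For Smc1b each piece was compared on its own among 185 candidates. Crabp1 (3.04) was nearest to the downstream piece, 0.29 away, and 6330403K07Rik (3.04) to the upstream piece, 0.02 away, in the authors' deposited table. Hormad1, Mcmdc2 and Tuba3a shared 1 pattern of peaks with 503 candidates. Their nearest in the authors' deposited table were Lrrn2 (1.97), Cnpy1 (3.30) and Calcoco2 (2.60), each within 0.08.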

How the data were processed

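The series holds 32 samples. Values came from 6 MapR libraries and from 1 table that compares 3 cheRNA samples per genotype, and the other assays were not analysed here. Groups follow the sample labels. TopHat2, BWA, SAMtools, bedtools, DESeq2 and MACS2 with the build mm10 are named per the submitters' processing notes, with no versions or roles. The authors' deposited cheRNA table gives the log2 fold change of each transcript, multiplied here by -1 to read TKO over WT. The authors' peak lists, 1 per library, give fold enrichment (a ratio), -log10 p, -log10 q and a score, which was not used. How MACS2 was run, and against which control, is not given in the sources used here. Read depth is unknown, so no counting interval is given.

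Genes were taken from GENCODE M21 and promoters from RefSeq, both on GRCm38, the assembly behind mm10. Files lay within its chromosomes, and 99.9% of gene transcripts whose name is in GENCODE lay on that gene and strand. Peaks counted for a gene when they met its body or 5 kb around it by at least 1 bp, unless they met an MNase-only peak. The WT and TKO libraries were set against each other with exact permutation tests, two-sided. Scripts used Python 3.11.15, pandas 2.3.3 and Biopython 1.88, with overlap counting and motif search tested on simulated data. Alternatives were windows of 1 kb and 20 kb, stricter peaks, control peaks kept, an overlap of at least 50% of the peak, equal numbers of peaks, a replicate block, leaving out each library, other transcript classes, a stricter fold and leaving out chromosome 11. The members, lists, motifs and tests were chosen with earlier results of these data known. Genes named are the members, list genes with a listed transcript or a peak in all 4 libraries, listed neighbours within 100 kb and the genes most like a member, and other list genes are named as not listed.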

Additional observations from a re-analysis of the deposited data

How the results depend on the processing

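The mean number of RNH peaks per 10000 at the 5 genes was higher in TKO under all alternatives run. Counting the pair of Stra8 peaks in TKO replicate 2 as 1 peak was not among them. The difference went from 0.165 with the stricter peaks to 1.87 with a window of 20 kb. When 1 library was left out it was 0.628 to 2.81. Single libraries did not all share this direction. With equal numbers of peaks, TKO replicate 1 held 0 and WT replicate 1 held 1.66. With the stricter peaks, both libraries of replicate 2 held 0. The difference for the 80 germline genes was 9.38 to 10.6 percentage points with other windows and overlaps, 3.12 with equal numbers of peaks and 0 with the stricter peaks. It ranged from -16.2 to 37.5 when 1 library was left out, being -14.4 without WT replicate 2 and -16.2 without TKO replicate 1. With 1 library left out, the genotypes no longer held the same replicate numbers. The shares were 63.8% and 76.2% in replicate 1 and 13.8% and 22.5% in replicate 2, for WT and TKO. The cause of this gap between replicates was not tested. The count of 19 germline genes listed higher was 22 with transcripts of any class under the gene's name and 19 by overlap on the strand. It was 14 of 74 without chromosome 11, and 9 with a log2 value of at least 2. The shares of all protein-coding genes under these alternatives were not computed, so the counts do not show whether the excess over coding genes holds. A replicate block left the differences at 1.72 and 10.6 (exact sign permutation, p = 0.5 for both, the smallest 2 pairs allow). The replicate numbers are not stated to pair libraries. Deviations of the same number correlated over coding genes (Pearson's r = 0.42), and replicate 1 had 3.56 and 4.15 times as many peaks as replicate 2. Peak lists without reads limit what these values can show.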
